A study of Mus musculus with 10 samples.

Results

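The 10 genes described here are markers of the primitive streak (T, Mixl1, Eomes, Gsc, Mesp1 and Evx1), a ligand of Wnt signalling (Wnt3), and genes that are switched on by Wnt signalling (Lef1, Axin2 and Sp5). They were taken as a list of names, and every probe carrying one of these names was used. This gave 14 of the 41143 probes, or 10 of the 28772 genes, on the arrays. The cells were J1, an established line of mouse embryonic stem cells, collected 96 hours (day 4) after a small interfering RNA (siRNA) was introduced. In the 4 knockdown groups the siRNA was directed against Ino80, the ATPase of the INO80 chromatin remodelling complex, or against its accessory subunits Ino80b, Ino80c or Ino80e. The control group received a non-targeting siRNA (NT). Each group had 2 samples, called biological replicates by the submitters, with 1 array for each. All groups were kept in ESGRO medium and changed to M15 medium for the transfection. The labels give the siRNAs by target only, and knockdown by siRNA is transient and partial.

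RNA of the targeted gene was lower than in NT with each siRNA, with log2 fold changes of -1.20 (Ino80), -2.00 (Ino80b), -2.34 (Ino80c) and -1.21 (Ino80e), of which that of Ino80e did not pass the test (adjusted p = 0.0831). Ino80b RNA was also below NT on the Ino80c and Ino80e arrays (-1.11 and -1.39, limma adjusted p = 0.0886 and 0.0889), without passing. All 8 stem cell markers examined were well above background on every array. The 2 NT arrays lay on a slide of their own, the Ino80 and Ino80b arrays shared another slide, and the Ino80c and Ino80e arrays shared the remaining slide, so that slide and NT cannot be told apart. The Ino80 and Ino80b groups, and the Ino80c and Ino80e groups, could be compared within a slide. Per array, 66.4% to 79.0% of the probes passed the scanner's test of being well above background, and the number of arrays limits the precision. Levels are given as a percentage of the 75th percentile of the array's signal. On the log2 scale the median of all genes lay above NT by 0.16 (Ino80), 0.13 (Ino80b), 0.26 (Ino80c) and 0.19 (Ino80e), and log2 fold changes of single genes carry that shift.

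The primitive streak forms in the mouse embryo where Wnt3 and Nodal signals act on the epiblast, and epiblast cells that pass through it become mesoderm and endoderm. Wnt ligands stop the destruction complex of Axin, Apc and Gsk3 from degrading beta-catenin, which then binds transcription factors of the TCF/LEF family on target genes. Axin2, Lef1, Sp5 and T are among the targets of beta-catenin in mouse embryos and stem cells. Embryonic stem cell cultures hold streak genes at a low level, and the genes rise when the cells leave pluripotency towards mesoderm.

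The stretches of 250 bases before the start sites of 4 of the genes are printed because these are the genes whose 8 knockdown arrays all lay on 1 side of both NT arrays (Sp5, Evx1 and T), with Mesp1 as the gene with the most matches close to its start. The sequences are those of RefSeq on build GRCm38.p6, at chr2:70474673-70474922 on the plus strand for Sp5, chr6:52313248-52313497 on the plus strand for Evx1, chr17:8434173-8434422 on the plus strand for T, and chr7:79793591-79793840 on the minus strand for Mesp1. Each is written 5′ to 3′ towards the start site. Capitals mark a TCF/LEF word, that is CTTTG followed by 2 letters that are each A or T, on either strand.
Sp5: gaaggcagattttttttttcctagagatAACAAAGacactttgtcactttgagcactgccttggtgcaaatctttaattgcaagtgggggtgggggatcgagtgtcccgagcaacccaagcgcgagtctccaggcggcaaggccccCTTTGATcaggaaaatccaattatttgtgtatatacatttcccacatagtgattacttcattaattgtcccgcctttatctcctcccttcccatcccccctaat
Evx1: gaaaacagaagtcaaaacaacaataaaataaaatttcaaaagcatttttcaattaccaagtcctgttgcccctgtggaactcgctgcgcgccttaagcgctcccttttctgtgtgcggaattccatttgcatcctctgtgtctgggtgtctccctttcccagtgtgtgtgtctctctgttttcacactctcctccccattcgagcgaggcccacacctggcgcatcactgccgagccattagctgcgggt
T: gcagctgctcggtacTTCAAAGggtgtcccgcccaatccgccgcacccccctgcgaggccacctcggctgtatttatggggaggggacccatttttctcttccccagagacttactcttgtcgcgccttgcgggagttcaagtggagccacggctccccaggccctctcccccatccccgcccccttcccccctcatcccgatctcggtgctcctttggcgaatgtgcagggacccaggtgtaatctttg
Mesp1: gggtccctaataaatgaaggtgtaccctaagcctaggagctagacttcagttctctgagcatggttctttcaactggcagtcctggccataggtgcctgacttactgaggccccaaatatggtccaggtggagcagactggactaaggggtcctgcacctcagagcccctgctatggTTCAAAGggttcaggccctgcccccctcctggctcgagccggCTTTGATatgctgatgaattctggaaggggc

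A TCF/LEF word stood in 16.9% of all 32851 RefSeq promoter windows, each of 300 bases, from 250 before to 50 after the start. RefSeq windows were matched for 9 of the 10 genes, 12 windows in all, and 5 genes had a word in 1 of theirs. In Sp5 the words stood 222 and 104 bases upstream of the start site, in T 235 bases upstream, and in Mesp1 73 and 31 bases upstream. In Wnt3 a word lay 18 bases after the start site, and in Lef1 147 bases upstream of 1 of its 4 start sites. None stood in the windows of Evx1, Axin2, Eomes or Gsc. The core of the motif bound by T-box factors such as T and Eomes, GGTGTGA on either strand, stood in 3.98% of windows, and among the 10 genes only in that of Mesp1, 5 bases after the start, where it overlapped no TCF/LEF word. These matches are letters in a window and were not tested for binding.

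Of the 10 genes, Evx1 alone differed from NT in single knockdowns: it fell with Ino80, Ino80b and Ino80c siRNA. Sp5, T, Wnt3, Gsc and Mesp1 had higher mean signals than NT in several knockdowns without passing the test, and Eomes, Lef1 (by its brightest probe) and Axin2 had log2 fold changes between -0.35 and 0.36. Of the 10 genes, 9 were bright enough to be tested, with 12 of the 14 probes. Of these, 1 was called with Ino80 siRNA, where 12.4% of all 20663 genes tested were called, 1 with Ino80b siRNA (6.48% of all genes) and 1 with Ino80c siRNA (6.37% of all genes). None was called with Ino80e siRNA, where 0.00484% of all genes, a single gene, was called. An unadjusted p under 0.05 by limma was reached there by 4 of the 9 members and by 5881 of the 20663 genes tested. The calls are those of limma over all 10 arrays at a Benjamini-Hochberg adjusted p under 0.05. The median log2 fold change of the 9 members was 0.22 (Ino80), 0.15 (Ino80b), 0.31 (Ino80c) and 0.36 (Ino80e), next to the medians of all genes given above. The comparisons share the same NT arrays, so a gene high or low in NT moves in all 4 of them.

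**Figure D1:**
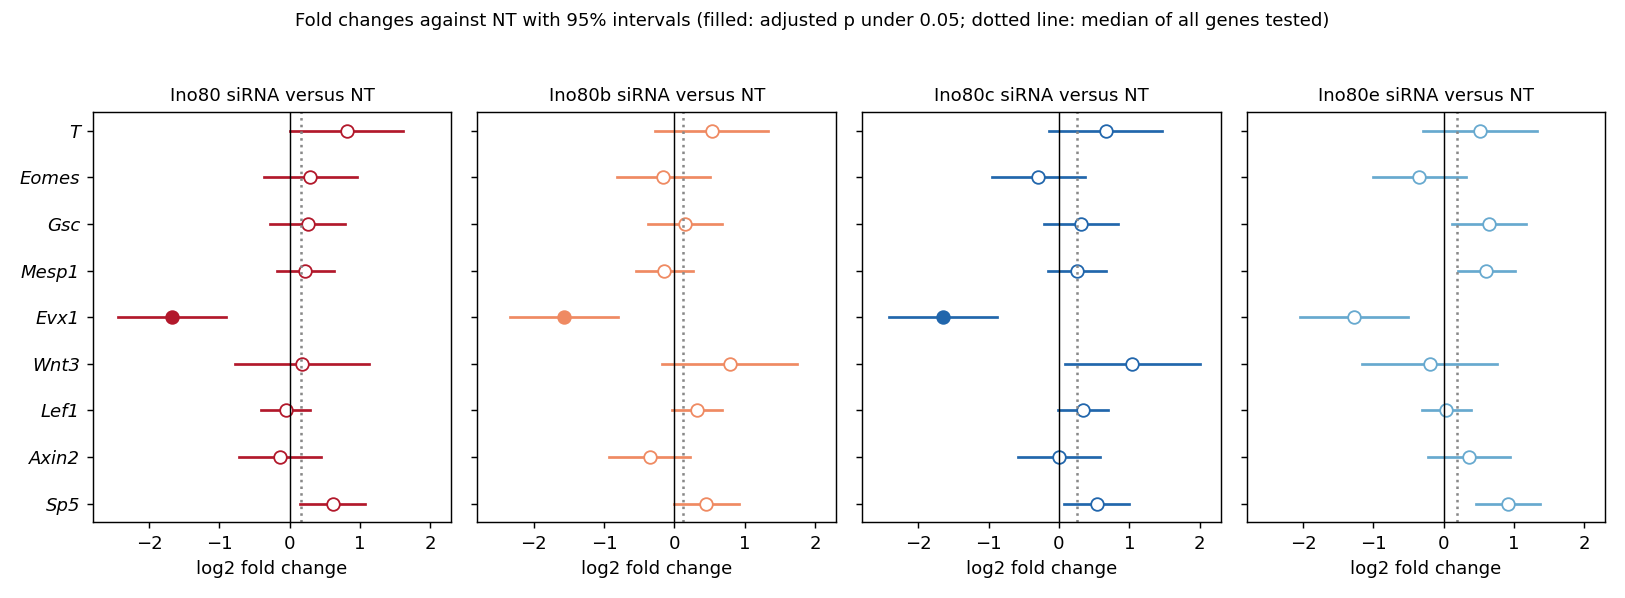
Log2 fold changes of the 9 tested genes (points) with 95% intervals (lines) for Ino80, Ino80b, Ino80c and Ino80e siRNA against NT, filled where the adjusted p was under 0.05, with a dotted line at the median of all genes tested. Evx1 lies between -1.67 and -1.27 in the 4 panels, and no other point is filled.

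Evx1 encodes a homeobox transcription factor of the even-skipped family, expressed in the posterior part of the streak. Its signal was 8.63% and 4.80% of the array's 75th percentile on the Ino80 arrays, 6.92% and 6.92% on the Ino80b arrays, 6.01% and 7.11% on the Ino80c arrays, and 10.3% and 7.01% on the Ino80e arrays, against 24.7% and 17.0% on the NT arrays. All 8 knockdown arrays lay below both NT arrays. This was so for 7.57% of all genes, and 26.7% of all genes had the 8 arrays on 1 side of NT in either direction. The 2 arrays of a single knockdown lay apart from both NT arrays for 54.1% (Ino80), 58.5% (Ino80b), 60.5% (Ino80c) and 57.8% (Ino80e) of all genes. Evx1 fell to 31.4% of NT with Ino80 siRNA (log2 fold change -1.67 ± 0.33, SE, n = 2 arrays per group, limma adjusted p = 0.0220), to 33.7% with Ino80b siRNA (-1.57 ± 0.33, limma adjusted p = 0.0405) and to 31.9% with Ino80c siRNA (-1.65 ± 0.33, limma adjusted p = 0.0366). With Ino80e siRNA it stood at 41.5% of NT (-1.27 ± 0.33, limma adjusted p = 0.0910), which did not pass. Between the knockdowns Evx1 ranged only from 6.44% (Ino80) to 8.51% (Ino80e) as geometric means, and no pair of knockdowns differed (adjusted p from 0.536 to 0.985). The single Evx1 probe lies on build mm7 at chr6:52281269-52281328.

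The fall of Evx1 rested on few arrays. In the Ino80 comparison it missed the threshold when NT replicate 1 (adjusted p = 0.0591), NT replicate 2 (0.0527) or Ino80 replicate 2 (0.0888) was left out, and in the Ino80b and Ino80c comparisons when any 1 array other than the Ino80 arrays was left out (adjusted p from 0.0593 to 0.213). Fitted on the 4 arrays of a comparison alone, limma called neither Evx1 (adjusted p = 0.146, 0.140 and 0.145) nor any other gene in these knockdowns, with 3848, 4323 and 4731 genes at an unadjusted p under 0.05. Without the correction for local background the fall was smaller, at -0.99, -0.97 and -1.03 in the authors' deposited table. With normexp, a background correction that models the signal as added to noise, it was -0.96, -0.74 and -0.71. Each of these was called. Normexp was run with an offset of 50 intensity units added to the signal, which by itself draws fold changes of dim genes towards 0. Markers of the stem cells themselves and of feeder fibroblasts moved in the same comparisons. Of 8 stem cell markers 4, 3 and 2 fell with Ino80, Ino80b and Ino80c siRNA and none with Ino80e siRNA, and their summed signal was 40415 to 49020% of the 75th percentile with Ino80 siRNA, 49034 to 57673% with Ino80b siRNA, 56921 to 58141% with Ino80c siRNA and 64387 to 72243% with Ino80e siRNA, against 58812 to 62296% in NT. Of 11 fibroblast feeder markers tested out of 12, 5, 2 and 3 rose and 0 with Ino80e siRNA, and their sum was 3746 to 3958% with Ino80 siRNA, 2538 to 3126% with Ino80b siRNA, 2658 to 3158% with Ino80c siRNA and 2206 to 2496% with Ino80e siRNA, against 3052 to 3239% in NT. The sums rest mostly on Dppa5a and Zfp42 for the stem cell markers and on Acta2 and Tagln for the feeder markers. With Ino80 siRNA Tagln read 1874% and 1912%, against 635% and 780% in NT, while Acta2 read 1874% and 1587%, against 2438% and 2093%. Among stem cell markers Nanog read 332% and 395% there, against 787% and 1082%, and Sox2 836% and 1133%, against 1124% and 1016%. The sums thus do not give the share of a cell type. Of the 11 feeder markers tested, 9 to 11 were well above background on an array, and Lum was too dim to test. In NT Postn read 1.23% and 0.245%, Dcn 2.66% and 2.88%, and Col3a1 4.94% and 4.38%. Col1a1 read 17.8% and 22.0% there and Thy1 85.8% and 103%. Whether feeder cells were present was not tested, nor was the part of either marker set in the fall of Evx1. In bulk samples fewer cells of a type and less RNA per cell cannot be told apart.

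**Figure D2:**
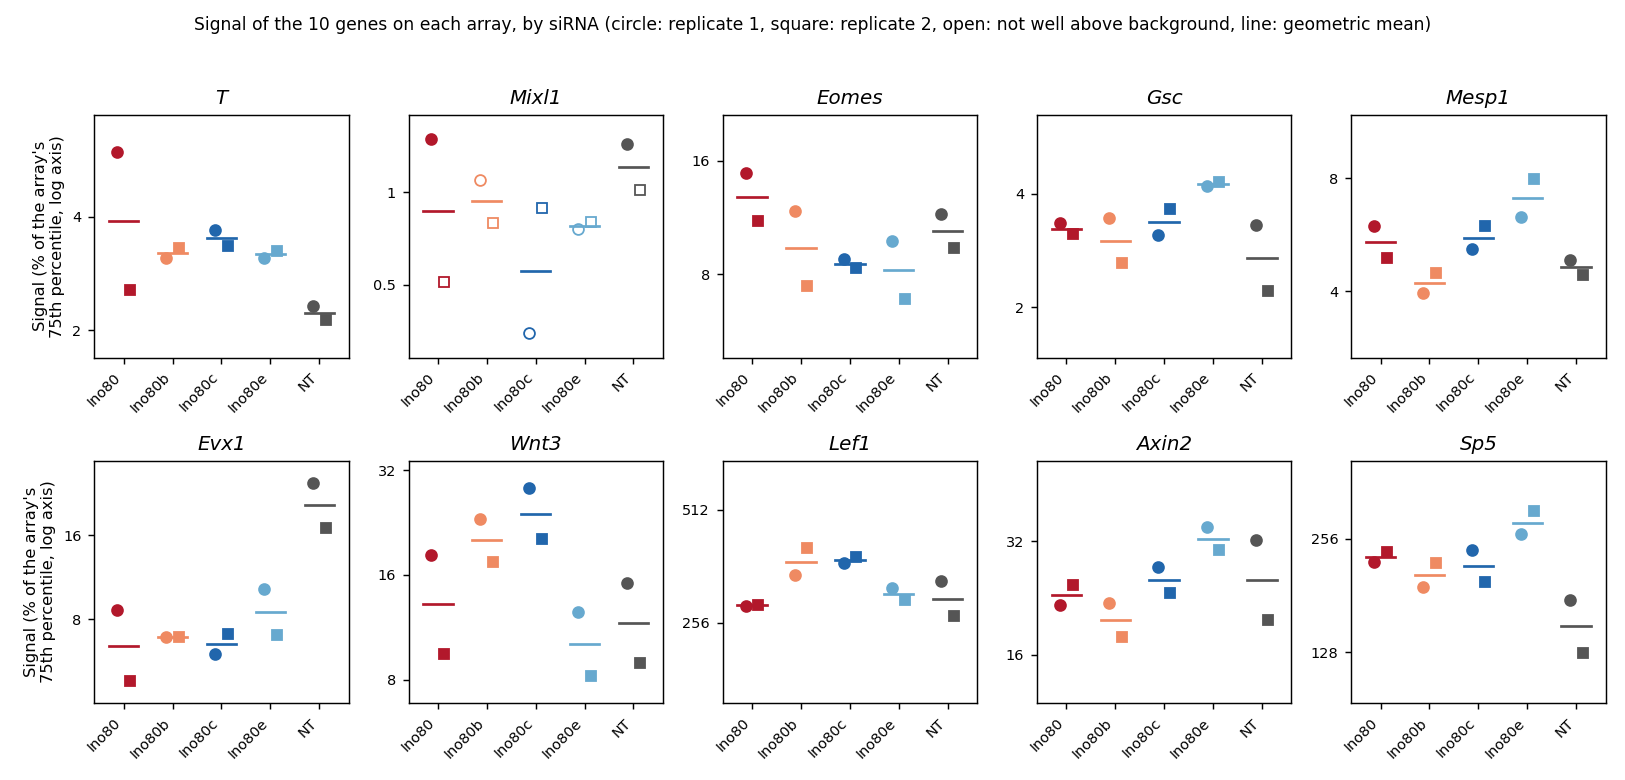
Signal of each of the 10 genes on the 10 arrays, as a percentage of the array's 75th percentile on a log axis, for Ino80, Ino80b, Ino80c, Ino80e and NT siRNA (circle: replicate 1, square: replicate 2, open: not well above background, line: geometric mean). The 8 knockdown arrays lie below both NT arrays for Evx1, above both for T and Sp5, and on either side of them or among them for the other genes.

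T, also called brachyury, encodes the T-box factor that marks the streak and the mesoderm leaving it. Its signal was 5.93% and 2.55% of the 75th percentile on the Ino80 arrays, 3.11% and 3.31% on the Ino80b arrays, 3.69% and 3.35% on the Ino80c arrays, and 3.12% and 3.24% on the Ino80e arrays, against 2.32% and 2.13% on the NT arrays. All 8 knockdown arrays lay above both NT arrays, as they did for 19.1% of all genes, and Ino80 replicate 1 stood apart from the other arrays. The log2 fold changes were 0.81 ± 0.34, 0.53 ± 0.34, 0.66 ± 0.34 and 0.52 ± 0.34 with Ino80, Ino80b, Ino80c and Ino80e siRNA, and none passed (adjusted p from 0.158 to 0.350). Each value averages 8 to 10 spots, since the T probe is printed 10 times on the array. On the log2 scale the standard error over the spots was 0.04 on both Ino80 arrays. It was 0.13 on NT replicate 1, the largest of the 10 arrays, and 0.06 on NT replicate 2. Without Ino80 replicate 1 the change with Ino80 siRNA was 0.20, and without Ino80 replicate 2 it was 1.42. The value thus rests on which of the 2 arrays is used. The 2 Ino80 arrays had a standard deviation of 0.86 on the log2 scale, against 0.04 to 0.10 in the other groups. Leaving out either one takes this disagreement out of the spread, so a p-value from such a fit does not measure it. The signal was dim, between 18.9 and 34.4 intensity units as group means. The probe is assigned on build mm7 to the unplaced sequence chr17_random, at 1303091 to 1303150.

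Mixl1, a paired-type homeobox factor of the streak, was well above background on only 2 of the 10 arrays, Ino80 replicate 1 and NT replicate 1, and was not tested. It read 1.49% and 0.509% on the Ino80 arrays, 1.10% and 0.796% on the Ino80b arrays, 0.348% and 0.887% on the Ino80c arrays, 0.758% and 0.799% on the Ino80e arrays, and 1.43% and 1.02% on the NT arrays. The groups overlapped, and values at this level have no reliable order. The probe lies at chr1:180673929-180673988 on build mm7.

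Eomes, the T-box factor needed for definitive endoderm and for mesoderm to leave the streak, read 14.9% and 11.1% on the Ino80 arrays, 11.8% and 7.47% on the Ino80b arrays, 8.78% and 8.30% on the Ino80c arrays, and 9.82% and 6.86% on the Ino80e arrays, against 11.6% and 9.42% on the NT arrays. Only the Ino80c arrays lay apart from NT, both below it. The log2 fold changes were 0.30 ± 0.28, -0.16 ± 0.28, -0.29 ± 0.28 and -0.35 ± 0.28 in the same order (adjusted p from 0.441 to 0.750). The 3 negative signs turned with normexp background correction. Its probe lies at chr9:118163832-118163891 on build mm7.

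Gsc encodes goosecoid, a homeobox repressor of the anterior streak and the organizer. It read 3.35% and 3.12% on the Ino80 arrays, 3.45% and 2.62% on the Ino80b arrays, 3.11% and 3.64% on the Ino80c arrays, and 4.20% and 4.31% on the Ino80e arrays, against 3.32% and 2.22% on the NT arrays. Only the Ino80e arrays lay above both NT arrays. The log2 fold change there was 0.65 ± 0.22 (adjusted p = 0.123), and in the other knockdowns it lay between 0.15 and 0.31 (adjusted p from 0.360 to 0.696). With normexp correction the Ino80e change was 0.36 and passed (limma adjusted p = 0.0368), as did 5153 of all 20663 genes. The probe lies at chr12:101965538-101965597 on build mm7.

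Mesp1 encodes a basic helix-loop-helix factor of the earliest mesoderm, from which heart precursors arise, and has 2 probes, at chr7:75661057-75661116 and chr7:75660860-75660919 on build mm7. The brighter probe read 5.97% and 4.92% on the Ino80 arrays, 3.96% and 4.47% on the Ino80b arrays, 5.17% and 5.96% on the Ino80c arrays, and 6.30% and 7.93% on the Ino80e arrays, against 4.85% and 4.43% on the NT arrays. The Ino80, Ino80c and Ino80e arrays lay above both NT arrays, and the Ino80b arrays overlapped them. Its log2 fold change was 0.61 ± 0.17 with Ino80e siRNA (adjusted p = 0.0990) and 0.22 ± 0.17, -0.14 ± 0.17 and 0.26 ± 0.17 with Ino80, Ino80b and Ino80c siRNA, and none passed. The dimmer probe read 32.2% on Ino80b replicate 1, against 2.21% on Ino80b replicate 2 and 2.07% to 3.93% on the other arrays. That 1 array turned the Ino80b change of the mean of both probes to 0.82.

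Wnt3, the ligand that the mouse embryo needs to form a streak, has 2 probes at chr11:103925136-103925195 and chr11:103926765-103926824 on build mm7. The brighter probe read 18.3% and 9.48% on the Ino80 arrays, 23.2% and 17.4% on the Ino80b arrays, 28.4% and 20.3% on the Ino80c arrays, and 12.5% and 8.20% on the Ino80e arrays, against 15.1% and 8.96% on the NT arrays. The Ino80b and Ino80c arrays lay above both NT arrays, and the Ino80 and Ino80e arrays overlapped them. In every group replicate 1 was the brighter array. The log2 fold changes were 0.18 ± 0.41, 0.79 ± 0.41, 1.04 ± 0.41 and -0.20 ± 0.41 with Ino80, Ino80b, Ino80c and Ino80e siRNA (adjusted p = 0.793, 0.243, 0.138 and 0.777 by limma). The dimmer probe gave 0.51 ± 0.47, 1.13 ± 0.47, 1.54 ± 0.47 and -0.06 ± 0.47 in the same order, and none of these passed either (adjusted p from 0.0897 to 0.944 over all probes). Both probes thus placed the groups in the same order, with Ino80c highest, then Ino80b, Ino80, NT and Ino80e, though neighbours in that order overlapped on both probes.

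**Figure D3:**
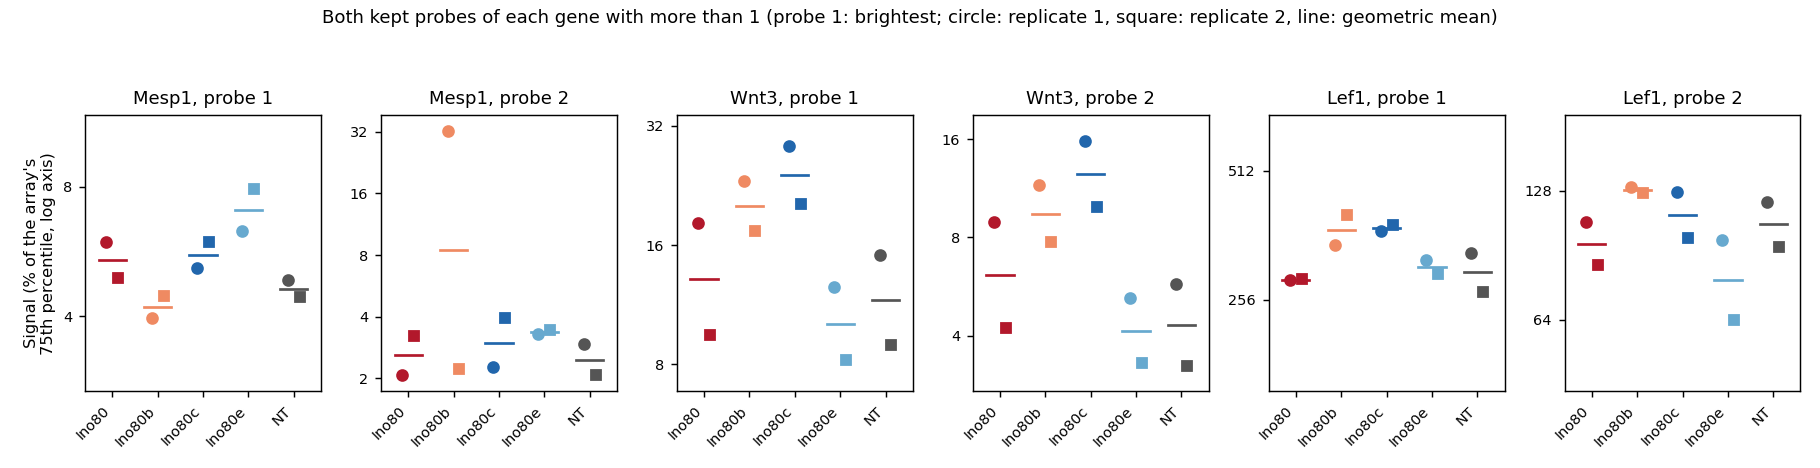
Signal of both tested probes of Mesp1, Wnt3 and Lef1 on the 10 arrays, as a percentage of the array's 75th percentile on log axes, for Ino80, Ino80b, Ino80c, Ino80e and NT siRNA (circle: replicate 1, square: replicate 2, line: geometric mean). The Wnt3 probes show the same order of groups, whereas the dimmer Mesp1 probe holds 1 array at 32.2%, Ino80b replicate 1, far above its partner at 2.21%.

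Lef1 encodes an HMG-box factor that carries beta-catenin to target genes and is itself a target. Its brightest probe, at chr3:131060609-131060668 on build mm7, read 285% and 286% of the 75th percentile on the Ino80 arrays, 343% and 404% on the Ino80b arrays, 370% and 382% on the Ino80c arrays, and 316% and 294% on the Ino80e arrays, against 330% and 267% on the NT arrays. The Ino80b and Ino80c arrays lay above both NT arrays, and the Ino80 and Ino80e arrays lay between them. The log2 fold changes were -0.06 ± 0.15, 0.33 ± 0.15, 0.34 ± 0.15 and 0.04 ± 0.15 with Ino80, Ino80b, Ino80c and Ino80e siRNA (adjusted p from 0.173 to 0.883). A second probe, whose match spans an intron from chr3:131041424 to 131059585, gave -0.15, 0.27, 0.07 and -0.43 in the same order and passed in none. The third Lef1 probe was well above background on no array.

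Axin2 encodes a scaffold of the destruction complex that Wnt signalling induces as a negative feedback, and its level is often taken as a reading of the pathway. It read 21.7% and 24.5% on the Ino80 arrays, 22.0% and 17.9% on the Ino80b arrays, 27.3% and 23.3% on the Ino80c arrays, and 34.8% and 30.3% on the Ino80e arrays, against 32.3% and 19.7% on the NT arrays. The 2 NT arrays lay nearly as far apart as the 8 knockdown arrays did, and every knockdown overlapped NT. The log2 fold changes were -0.13 (95% interval -0.71 to 0.45), -0.35 (-0.93 to 0.23), 0.00 (-0.58 to 0.58) and 0.36 (-0.22 to 0.94) with Ino80, Ino80b, Ino80c and Ino80e siRNA. None passed (adjusted p from 0.363 to 0.995), and the intervals reach from -0.93 to 0.94. Its probe lies at chr11:109059707-109059766 on build mm7.

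Sp5 encodes a zinc finger factor of the Sp family that beta-catenin induces directly. It read 223% and 235% on the Ino80 arrays, 191% and 221% on the Ino80b arrays, 239% and 197% on the Ino80c arrays, and 263% and 303% on the Ino80e arrays, against 176% and 127% on the NT arrays. All 8 knockdown arrays lay above both NT arrays, as they did for 19.1% of all genes, and the Ino80e arrays were the brightest. The log2 fold changes were 0.61 ± 0.20, 0.45 ± 0.20, 0.53 ± 0.20 and 0.91 ± 0.20 with Ino80, Ino80b, Ino80c and Ino80e siRNA, none of which passed (adjusted p = 0.0831, 0.174, 0.122 and 0.0816 by limma). The scanner files give no position for the Sp5 probe.

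Set as 1 group of 8 arrays against NT, each knockdown weighing the same, the siRNAs gave 2 calls among the 9 genes, where 18.3% of all genes were called. Evx1 was lower (-1.54 ± 0.26, SE, limma adjusted p = 0.0157) and Sp5 higher (0.63 ± 0.15, limma adjusted p = 0.0357), while the median of all genes was 0.19. T, at 0.63 ± 0.27, did not pass (adjusted p = 0.136), nor did the other 6 genes (adjusted p from 0.201 to 0.919). Without Ino80 replicate 1 T stood at 0.48 and without Ino80 replicate 2 at 0.78, in fits whose spread leaves out the disagreement of the 2 Ino80 arrays. Sp5 did not pass without NT replicate 2 (0.39, adjusted p = 0.229), without Ino80 replicate 2 (0.0580) and without any 1 of the Ino80b, Ino80c and Ino80e arrays (0.0530 to 0.0761). Evx1 did not pass without NT replicate 2 (0.0739). In the test of any difference among the 5 groups, where 5.31% of all genes were called, none of the 9 genes passed. The smallest adjusted p-values of this limma F test were those of Evx1 (0.0672), Sp5 (0.117) and Mesp1 (0.124).

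The knockdowns were also compared with each other. In all 6 pairs none of the 9 genes was called. Of all genes, 0.0678% were called between Ino80 and Ino80b siRNA and 0.0339% between Ino80c and Ino80e siRNA, the pairs that share a slide, and 1.04% between Ino80 and Ino80c, 3.14% between Ino80 and Ino80e, 0.029% between Ino80b and Ino80c and 0.687% between Ino80b and Ino80e siRNA. Within slides the largest differences were those of Wnt3, 1.24 higher with Ino80c than with Ino80e siRNA on the log2 scale (interval 0.29 to 2.20, limma adjusted p = 0.320), and again Wnt3, -0.61 with Ino80 against Ino80b siRNA (interval -1.57 to 0.35, limma adjusted p = 0.691). Lef1 differed there by -0.38 (interval -0.74 to -0.03, limma adjusted p = 0.520). Mesp1 with Ino80b against Ino80e siRNA had the smallest p of the 6 pairs, at -0.75 (interval -1.16 to -0.34, limma adjusted p = 0.121), and Axin2 and Wnt3 in that pair gave -0.71 (limma adjusted p = 0.260) and 0.99 (limma adjusted p = 0.332). These intervals are wide, and a missed threshold does not show that the subunits act alike on these genes.

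Of 83 other genes of the pathway 78 were tested, and 10 rose and 7 fell with Ino80 siRNA, 2 rose and 6 fell with Ino80b siRNA, 3 rose and 5 fell with Ino80c siRNA, and none was called with Ino80e siRNA. Of all genes, 7.65% rose and 4.77% fell with Ino80 siRNA, 3.9% rose and 2.58% fell with Ino80b siRNA, and 4.85% rose and 1.52% fell with Ino80c siRNA. The median log2 fold change of the 78 genes was 0.10, 0.13, 0.23 and 0.10 in that order, next to the medians of all genes of 0.16, 0.13, 0.26 and 0.19. The genes below are the largest calls of each list, and their adjusted p-values by limma lie between 0.00217 and 0.0493.

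Among 18 ligands and secretion factors tested, 1 was called: Wnt8a, a ligand expressed in the streak, rose with Ino80c siRNA (1.70 ± 0.30). Among 17 receptors 4 rose and 1 fell with Ino80 siRNA, and 1 rose and 1 fell with Ino80b and with Ino80c siRNA. The Frizzled receptor gene Fzd5 fell with Ino80, Ino80b and Ino80c siRNA (-1.63, -1.25 and -1.12, each ± 0.14), and Fzd9 rose (1.20, 0.74 and 0.83, each ± 0.13). Fzd1 (1.05 ± 0.27) and Fzd2 (1.03 ± 0.13) rose with Ino80 siRNA, and the fourth was Lrp5, the gene of a co-receptor. The summed signal of the 17 receptors was 2313 to 2386% of the 75th percentile with Ino80 siRNA, 2040 to 2064% with Ino80b siRNA, 2002 to 2120% with Ino80c siRNA and 1852 to 1876% with Ino80e siRNA, against 1744 to 1745% in NT. A sum follows its brightest genes. The median log2 fold change of the receptors was 0.47, 0.24, 0.30 and 0.11 in that order, next to 0.16, 0.13, 0.26 and 0.19 for all genes. Not all lists had sums above NT. The 16 other streak and mesendoderm genes tested summed to 3187 to 3468%, 3844 to 4102%, 4266 to 4368% and 4115 to 4531%, against 4671 to 4908% in NT.

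Of 13 secreted antagonists tested out of 16, 1 rose and 3 fell with Ino80 siRNA, 3 fell with Ino80b siRNA and 2 fell with Ino80c siRNA. Dkk1, whose product blocks the Lrp co-receptors, fell with Ino80 siRNA (-3.09 ± 0.23) and with Ino80b siRNA (-1.56 ± 0.23). Sfrp1, which encodes a soluble Frizzled-like protein that binds Wnt, fell with Ino80, Ino80b and Ino80c siRNA (-1.55, -0.92 and -0.95, each ± 0.14), as did Notum, the gene of an enzyme that removes the lipid of Wnt ligands (-1.17, -0.67 and -0.77, each ± 0.15). Sfrp2, of the same family as Sfrp1, rose with Ino80 siRNA (0.85 ± 0.19). Dkk1 and Notum are also targets of Wnt signalling in other settings. Of the 10 genes of beta-catenin and its destruction complex, 1 rose and 3 fell with Ino80 siRNA and 2 fell with Ino80b and with Ino80c siRNA. The kinase gene Gsk3a fell in these knockdowns (-1.22, -1.54 and -1.43, each ± 0.28), as did Dvl2, a Dishevelled gene that passes the signal on (-0.96, -0.81 and -1.02, each ± 0.16), and with Ino80 siRNA Btrc, part of the ligase for beta-catenin, fell (-0.87 ± 0.23) and Dvl1 rose (0.67 ± 0.14).

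Of 12 nuclear factors of the pathway, Pygo1 (0.97 ± 0.24) and Ctnnbip1, an inhibitor of beta-catenin (0.71 ± 0.16), rose with Ino80 siRNA and none was called otherwise. Of 8 further target genes, Tnfrsf19 rose with Ino80, Ino80b and Ino80c siRNA (1.26, 1.08 and 0.87, each ± 0.12), and Nkd2, a feedback inhibitor of Dishevelled, rose with Ino80 siRNA (1.30 ± 0.27). Of 19 other genes of the streak and of mesendoderm, 16 were tested, and 1 rose and 6 fell with Ino80 siRNA, 3 fell with Ino80b siRNA, and 2 rose and 1 fell with Ino80c siRNA. Tbx3, a T-box gene that stem cells also express, fell in these 3 knockdowns (-2.55, -1.89 and -1.84, each ± 0.32). The endoderm factor genes Sox17 (-2.20 ± 0.27) and Foxa2 (-2.00 ± 0.32) and the gene of Gata4 (-1.05 ± 0.23) fell with Ino80 siRNA, and all 3 stand in the list of endoderm markers as well. With Ino80b siRNA Sox17 (-1.57 ± 0.27) and Mesp2, a relative of Mesp1 (-0.91 ± 0.18), fell. Msgn1, a mesoderm factor (0.62 ± 0.14), and Cdx2 (0.56 ± 0.12) rose with Ino80c siRNA. The summed signal of the 6 endoderm markers was 33.7 to 37.8% with Ino80 siRNA, 109 to 134% with Ino80b siRNA, 126 to 141% with Ino80c siRNA and 197 to 239% with Ino80e siRNA, against 172 to 209.5% in NT, with 5, 3, 0 and 0 of them lower. Their part in the changes of the streak list was not tested.

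**Figure D4:**
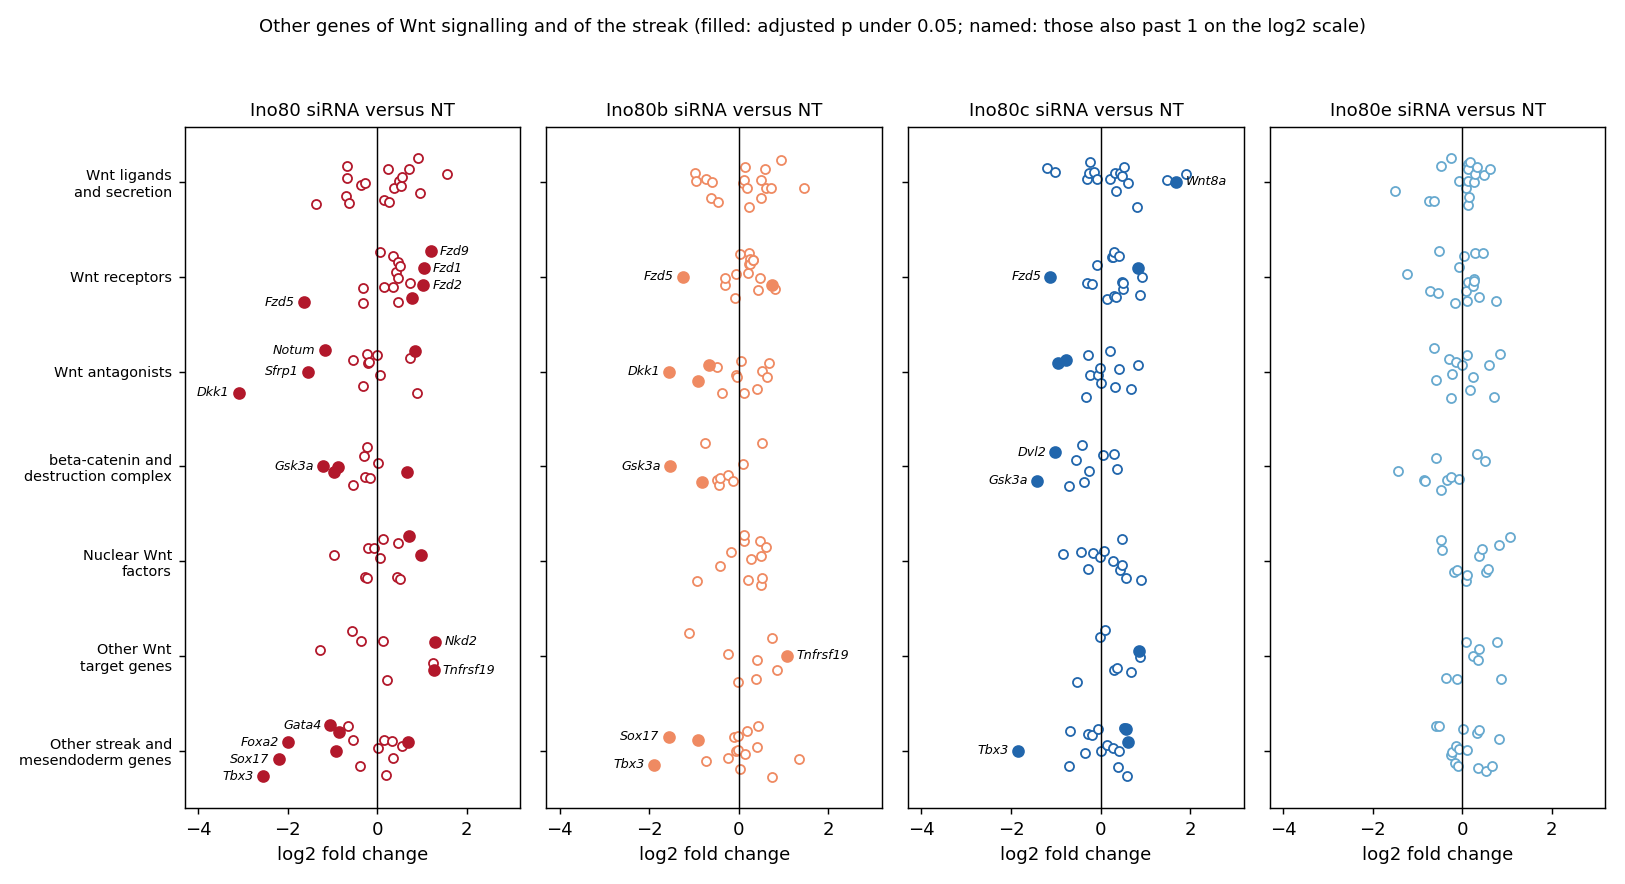
Log2 fold changes of other genes of Wnt signalling and of the streak (1 point per gene, spread vertically within each list for visibility), for Ino80, Ino80b, Ino80c and Ino80e siRNA against NT, filled where the adjusted p was under 0.05 and named where the change also passed 1. Filled points lie on both sides of 0 in the Ino80, Ino80b and Ino80c panels, and there is none for Ino80e.

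The genes whose log2 levels ran most like those of a member over the 10 arrays were looked up among 17425 genes that were well above background on every array. For Evx1 they were the array transcript AK046873 (Pearson r = 0.973), Urb2 (0.957) and Rtel1 (0.957). For Sp5 they were Ccdc103 (0.980), Nup37 (0.968) and Pcnx4 (0.966), and for T C1qb (0.967), B930025P03Rik (0.949) and AK084225 (0.938). For the other 6 members the highest r lay between 0.934 and 0.974. None of these partners belongs to the Wnt or streak lists. All points share the same 10 arrays. For Evx1 the 2 NT arrays stood above the other 8. For Sp5 and T they were the lowest, but by little: Sp5 read 176% on NT replicate 1 and 191% on Ino80b replicate 1. T read 2.32% on NT replicate 1 and 2.55% on Ino80 replicate 2, and its array farthest from the rest was Ino80 replicate 1. The r values thus describe the arrays only.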

How the data were processed

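Gene expression was measured on Agilent 4x44K arrays in 10 samples (5 siRNA groups of 2, grouped by the titles in the labels). Per the file headers, spots were quantified by the authors with Feature Extraction 9.5.3.1 in 1 colour, and the deposited intensity is the processed signal, with local background removed and a spatial trend corrected. Signals are in the green channel, although Cy5 is the dye in the labels. In the authors' deposited table, each column of log2 values was that array's log2 mean signal shifted by a constant (medians from 6.76 to 6.87). What set these constants, and thus the scale between columns, is unknown.

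Control and outlier-flagged spots were left out, spots of a probe were averaged in log2, and the array's 75th percentile (between 665 and 931 intensity units) was subtracted. No spot was saturated. A probe was kept where both arrays of some group had it well above background (29587 of 41143), and the brightest kept probe stood for a gene (20663 genes). Of the probes, 22951 were named through the RefSeq table of assembly GRCm38.p6 and 18223 kept the array's name. Probe positions are those of the files (mm7). A limma fit (version 3.58.1; lmFit, eBayes; R 4.3.3) took all 10 arrays with group as the only term (5 residual and 2.23 prior degrees of freedom). P-values are two-sided and Benjamini-Hochberg adjusted over all genes tested, and genes at an adjusted p under 0.05 are called. The fit was tested on simulated data. Errors (±) are standard errors, with n = 2 arrays per group.

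The members and gene lists were chosen with earlier results of these data known. Apart from the members, the text names up to 4 of the largest calls of each list, and Lrp5, which was chosen after its value was seen to complete a count. The genes most like a member are the 3 with the highest r. Alternatives were normexp (offset 50), quantile normalization, the deposited table, no filter on dim probes, the mean of a gene's probes, a trend with robust prior, array weights, only the arrays compared, the replicate number as a block, and leaving out each array.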

Additional observations from a re-analysis of the deposited data

How the results depend on the processing

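Among the fold changes of the 9 genes against NT, 751 alternative values kept their direction and side of the threshold, 39 lost a call, 24 gained one and 32 changed sign. Evx1 was lower than NT under every alternative run, and it was called in 14, 8, 8 and 4 of 19 alternatives with Ino80, Ino80b, Ino80c and Ino80e siRNA (adjusted p from 0.00220 to 0.146, 0.00734 to 0.213, 0.00819 to 0.163 and 0.0366 to 0.429). In the mean of the knockdowns Evx1 was called in 16 of 18 alternatives and Sp5 in 8 of 18.

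With Ino80 siRNA the number of members called was 2 instead of 1, Evx1 and Sp5, with normexp, the deposited table and the trend with robust prior, and 0 with array weights or only the arrays compared. Normexp, the deposited table and the trend called 3834, 3734 and 3728 of all 20663 genes there, against 2566 in the main fit. With Ino80b and with Ino80c siRNA it was 0 with no filter on dim probes, array weights or only the arrays compared. With Ino80e siRNA it was 4 instead of 0 with normexp (Gsc, Mesp1, Evx1 and Sp5) and 2 (Evx1 and Sp5) with the deposited table and the trend. Over all genes the calls with Ino80e siRNA rose as well, from 1 to 5153 (normexp), 1107 (deposited table) and 1814 (trend). For any difference among the groups the number of members called was 2 instead of 0 with normexp, the deposited table and the trend (Evx1 and Sp5) and 1 with quantile normalization (Evx1). For the mean of the knockdowns it was 1 with no filter and 0 with array weights, instead of 2. For both of these tests calls over all genes were counted in the main fit only, at 5.31% and 18.3%. No share of all genes can thus be set beside their counts under the alternatives. Between Ino80 and Ino80e siRNA normexp called 1 member (Gsc), with 3035 calls over all genes against 648 in the main fit. Between Ino80b and Ino80e siRNA array weights called 1 (Mesp1), with 712 calls over all genes against 142. Leaving out 1 array left 1 array in a group, whose spread was then taken from the other groups. The number of members called against NT changed among these fits.

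Replicate numbers are shared by all groups. The replicate differences of 2 groups correlated across genes with r from 0.264 to 0.321 among Ino80, Ino80b, Ino80e and NT. For pairs that hold Ino80c, r lay between 0.004 and 0.142. The labels tie the numbers to no batch, and whether arrays with the same number share a factor was not tested. With the replicate block the calls were 2 with Ino80b and with Ino80c siRNA (Evx1 and Wnt3), 2 with Ino80e siRNA (Evx1 and Sp5), 2 for any difference (Evx1 and Wnt3), 3 for the mean of the knockdowns (Evx1, Sp5 and Wnt3), and 1 (Wnt3) for Ino80 against Ino80c, Ino80b against Ino80e and Ino80c against Ino80e siRNA. In these pairs the block called 735, 842 and 307 of all genes, against 214, 142 and 7 without it. Against NT the block gave 4910, 3648, 3748 and 1953 calls over all genes, against 2566, 1339, 1317 and 1 without it. Over all alternatives these 4 counts ranged from 0 to 4910, 0 to 3648, 0 to 4231 and 0 to 5153. With only the arrays compared, limma called 0 genes in each knockdown, with 3848, 4323, 4731 and 3929 genes at an unadjusted p under 0.05.

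Signs turned only for fold changes that were not called. With normexp Eomes was 0.079, 0.060 and 0.10 with Ino80b, Ino80c and Ino80e siRNA and 0.10 in the mean of the knockdowns, Axin2 was 0.016 with Ino80c siRNA, Mesp1 0.017 with Ino80b siRNA and Wnt3 0.0073 with Ino80e siRNA. With quantile normalization Gsc was -0.014 with Ino80 and -0.13 with Ino80c siRNA, Mesp1 -0.073 with Ino80c siRNA and Lef1 -0.045 with Ino80e siRNA. Lef1 with Ino80e siRNA was -0.15 in the deposited table and -0.20 as the mean of its probes, and Mesp1 with Ino80b siRNA was 0.82 as the mean of its probes. Leaving out 1 array, Axin2 ranged from -0.49 to 0.22 (Ino80), -0.71 to 0.0043 (Ino80b), -0.36 to 0.35 (Ino80c) and -0.39 to 0.32 (mean). Eomes ranged from -0.48 to 0.17 (Ino80b) and -0.27 to 0.024 (mean), Gsc from -0.036 to 0.55 (Ino80) and -0.14 to 0.44 (Ino80b), Lef1 from -0.21 to 0.095 (Ino80) and -0.11 to 0.19 (Ino80e), and Wnt3 from -0.30 to 0.65 (Ino80) and -0.58 to 0.18 (Ino80e). The causes were not tested.

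With 2 arrays per group and NT on a slide of its own, differences from NT rest on 2 control arrays. Mixl1 and the third Lef1 probe were too dim to measure, and T and Gsc were dim.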

Other observations

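Genes next to the members on the chromosome were examined after the values of the members were seen, taking the 2 nearest tested protein-coding genes on each side in the RefSeq order. Of these 36 neighbours of 9 members, 3 were called with Ino80 siRNA, 2 with Ino80b siRNA, 1 with Ino80c siRNA and 0 with Ino80e siRNA, where 12.4%, 6.48%, 6.37% and 0.00484% of all genes were called, so the neighbours as a set were not called more often than genes in general. Mesp2 adjoins Mesp1 and encodes a related factor that acts in somite formation. It fell with Ino80 siRNA (log2 fold change -0.93 ± 0.18, limma adjusted p = 0.0228) and with Ino80b siRNA (-0.91 ± 0.18, limma adjusted p = 0.0381), where the brighter Mesp1 probe gave 0.22 and -0.14 without passing. Whether the changes of Mesp1 and Mesp2 differ was not tested. Dicer1, the gene of the enzyme that cuts microRNA precursors, lies next to Gsc and rose with Ino80 siRNA (1.16 ± 0.15, limma adjusted p = 0.00637) and with Ino80b siRNA (0.81 ± 0.15, limma adjusted p = 0.0315), where Gsc gave 0.25 and 0.15. Serpina3m, on the other side of Gsc, rose with Ino80c siRNA (1.29 ± 0.28, limma adjusted p = 0.0428), and Itga9, an integrin gene near Eomes, fell with Ino80 siRNA (-0.95 ± 0.24, limma adjusted p = 0.0466).

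The neighbours of Evx1 did not pass in any knockdown. Hoxa13 and Hoxa11, the nearest tested genes of the HoxA cluster beside it, gave 1.18 ± 0.61 and -1.75 ± 0.50 with Ino80 siRNA (limma adjusted p = 0.234 and 0.0607), and Hibadh and Tax1bp1 on the other side gave -0.35 ± 0.23 and -0.25 ± 0.13 (0.331 and 0.244).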
